A study of Homo sapiens with 18 samples.

Results

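MDA-MB-231 cells given the siRNA against BLM named siRNA1 were compared with the same cells given a control siRNA. MDA-MB-231 is a human triple-negative breast cancer line. Each group had 3 RNA sequencing libraries, out of 18 libraries in 6 groups in the series, which also covers A549 lung cancer cells with 3 siRNAs against BLM. The cells of every group grew in DMEM with serum and received an siRNA, so the controls were transfected as well. The labels name flat and 3D culture without saying which applies to a library, and no source says whether a group's 3 libraries are separate cultures. The p-values therefore rest on a spread between libraries that may be technical. A gene entered when it reached a CPM (count scaled to library size) of 1 in at least 3 of the 6 libraries, which 13572 of 27968 genes did. Of these, 255 reached 1 CPM in exactly 3 libraries, 71 of them only in the controls and 124 only with siRNA1. The gene just inside the limit was CD177, with a third-highest value of 1.0013 CPM, and the gene just outside was FLVCR2, at 0.99995 CPM.

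BLM is a RecQ helicase that unwinds joined DNA molecules at stalled replication forks and in homologous recombination. It works with topoisomerase TOP3A and the RMI proteins to separate crossed chromosomes without exchange, and people born without it have Bloom syndrome, with unstable chromosomes and a high cancer risk. In dividing tumour cells its gene is switched on together with other genes of DNA replication and mitosis, many of which carry shared promoter elements read by the DREAM and MuvB complexes.

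The libraries held 30143047 to 37577025 expected counts, with 3.93% to 4.88% of them in the top 10 genes. The label was compared with breast and other markers on the TPM scale (transcript abundance scaled to length and library size). VIM, the intermediate filament of mesenchymal cells, was at 2749 to 2811 TPM in the controls, the oestrogen receptor ESR1 at 0.22 to 0.28, CDH1 at 1.62 to 2.14 and the basal keratin KRT5 at 0. Some luminal markers were present, among them KRT19 at 596 to 644 TPM and TFF1 at 157 to 170. In the controls the 17 luminal breast markers summed to 2170 to 2477 TPM and the 16 claudin-low and basal markers to 5564 to 5876. With siRNA1 these sums were 1830 to 1960 and 4159 to 4205 TPM. The 14 lung epithelial markers summed to 24.0 to 25.6 TPM in the controls and 13.8 to 15.4 with siRNA1, with SFTPC, SCGB1A1 and SCGB3A1 at 0. The 14 leukocyte markers summed to 252 to 280 and 252 to 274 TPM, nearly all of it CD68, and the 9 endothelial markers to 325 to 344 and 348 to 352, nearly all of it ESAM. The 10 fibroblast markers summed to 10.2 to 11.3 and 10.2 to 11.2 TPM. Control library 3 stood apart from the other controls: its genes deviated from their control mean with an SD of 0.199 (log2), against 0.114 to 0.153 in the other 5 libraries.

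BLM mRNA was at 33.5, 35.5 and 35.9 CPM in the controls and at 5.25, 5.08 and 5.18 CPM with siRNA1. All 3 siRNA1 libraries were far below all 3 controls. The log2 fold change was -2.76 ± 0.07 (standard error, edgeR quasi-likelihood test, adjusted p 1.71e-08), and the siRNA1 mean was 14.8% of the control mean. CPM values here and below are scaled with TMM factors, and errors after ± are standard errors of log2 fold changes with n = 3 per group. For gene levels they were derived as the absolute log2 fold change over the square root of the test's F value. That F value draws on a spread estimate shared across genes. "Rose", "fell", "higher" and "lower" mark genes whose adjusted p (Benjamini-Hochberg) was under 0.05 in the edgeR quasi-likelihood test over all 13572 genes. RNA from whole cultures cannot tell fewer cells of a kind from less RNA per cell.

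Most genes of these cells moved, mainly by small amounts. In all, 8098 of 13572 genes were called, which is 59.7%, with 4057 higher (29.9%) and 4041 lower (29.8%). The median absolute log2 fold change of all tested genes was 0.28 and their median was 0.01. An absolute log2 fold change of 1 or more was reached by 932 called genes (6.87%), 351 higher and 581 lower, and one of 2 or more by 40 higher and 52 lower genes. The control and siRNA1 values did not overlap in 8925 genes (65.8%). Without control library 3, 8984 genes were called. Against these shares, a group of genes is described below by how many members moved and by its median.

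**Figure D1:**
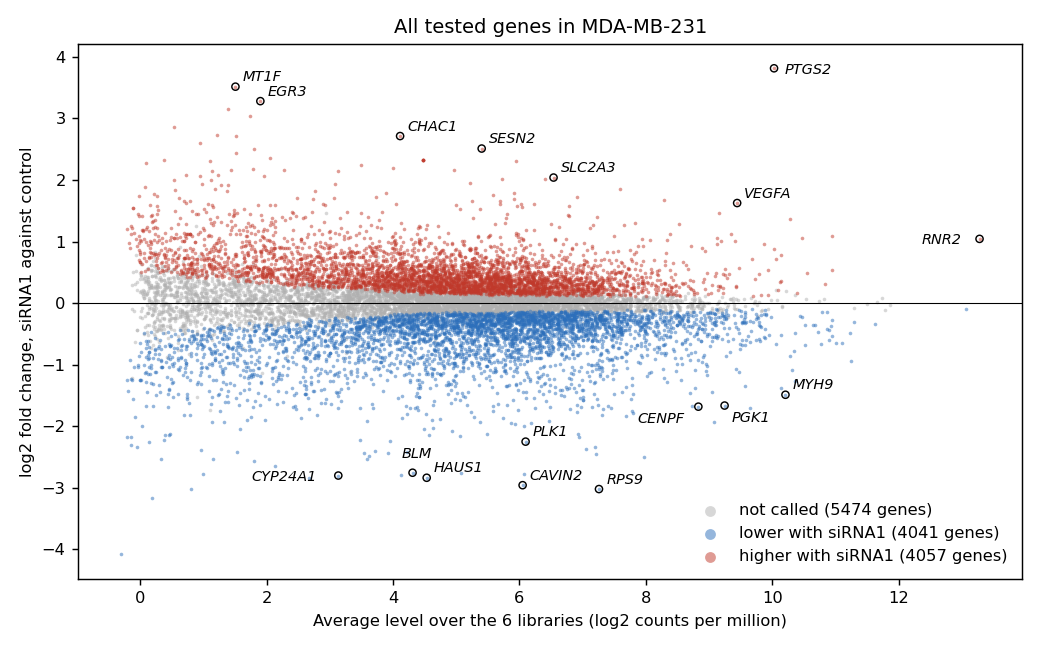
Each point is one of the 13572 tested genes, with its average level over the 6 libraries on the x axis (log2 CPM) and its log2 fold change, siRNA1 against control, on the y axis. Called genes are coloured, and the open circles mark named genes, from PTGS2 at 3.82 to RPS9 at -3.02.

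Genes that drive mitosis fell together. All 30 tested mitotic kinase, cyclin and anaphase control genes fell (median log2 fold change -1.37), and so did all 30 spindle, kinesin and cytokinesis genes (median -1.50), against 29.8% of all genes that fell. PLK1, the kinase that starts many steps of mitosis, was at 117, 120 and 103 CPM in the controls and at 25.4, 22.4 and 23.8 with siRNA1. No siRNA1 library came near a control, and the log2 fold change was -2.25 ± 0.08. The cyclin CCNB1 was at 340, 358 and 337 CPM in the controls and 106, 97.2 and 98.7 with siRNA1 (-1.78 ± 0.05), again with no overlap. BIRC5, also called survivin (-1.95 ± 0.07), AURKA (-1.71 ± 0.06), CDC20, which activates the anaphase-promoting complex (-1.67 ± 0.05), and CDK1 (-1.05 ± 0.05) fell as well, and the smallest fall on the kinase list was that of BUB3 (-0.33 ± 0.06). On the spindle list the lowest values were those of NUSAP1, which bundles microtubules (-2.45 ± 0.06), and the cytokinesis kinesin KIF20A (-2.18 ± 0.07), and the smallest fall was that of KIF22 (-0.80 ± 0.05).

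Kinetochore genes showed a wider range. Of 35 tested, 32 fell and 0 rose (median -0.87). CENPF, a large kinetochore protein, was at 694, 701 and 688 CPM in the controls and at 215, 216 and 217 with siRNA1, the 2 groups each spanning a narrow band. Its log2 fold change was -1.68 ± 0.04. The kinetochore motor CENPE (-1.78 ± 0.06) fell by a similar amount, whereas NSL1 (-0.17 ± 0.08), CENPQ (-0.04 ± 0.08) and ITGB3BP (0.10 ± 0.08) were not called. Without control library 3, 1 member rose, ITGB3BP (0.18), and NSL1 fell without siRNA1 library 1 (-0.24). TOP2A, which untangles sister chromosomes, went from 1235, 1290 and 1145 CPM to 386, 368 and 373 (-1.70 ± 0.05), a fall seen in every siRNA1 library.

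Promoters of 3 of these genes are shown because their matches to known cell cycle elements can be read against the falls above. The sequences are the 250 bases before the transcription start in the RefSeq table for GRCh38.p14, 5′ to 3′ on the gene's strand, all 3 on the plus strand: PLK1 at chr16:23678639-23678888, CDC20 at chr1:43358731-43358980 and CENPF at chr1:214602945-214603194. Capitals mark matches on either strand to CCAAT (the CCAAT box, bound by NF-Y) or to TTTGAA (the core of the cell cycle homology region, CHR, bound by MuvB).
PLK1: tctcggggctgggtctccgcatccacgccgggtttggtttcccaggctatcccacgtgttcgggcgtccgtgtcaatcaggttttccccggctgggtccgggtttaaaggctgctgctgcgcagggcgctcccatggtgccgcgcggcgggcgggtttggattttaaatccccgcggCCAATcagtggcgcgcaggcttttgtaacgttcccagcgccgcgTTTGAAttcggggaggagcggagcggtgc
CDC20: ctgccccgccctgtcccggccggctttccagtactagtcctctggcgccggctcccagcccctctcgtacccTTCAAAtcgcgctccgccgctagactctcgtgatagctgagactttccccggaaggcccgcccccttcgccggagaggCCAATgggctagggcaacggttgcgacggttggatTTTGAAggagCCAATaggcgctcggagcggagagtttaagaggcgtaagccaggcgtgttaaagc
CENPF: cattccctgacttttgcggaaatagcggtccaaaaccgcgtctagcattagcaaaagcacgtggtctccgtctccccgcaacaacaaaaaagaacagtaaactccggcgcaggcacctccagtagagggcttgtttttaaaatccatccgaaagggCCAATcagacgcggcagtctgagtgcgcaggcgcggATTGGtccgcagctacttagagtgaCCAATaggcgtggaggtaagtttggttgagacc
PLK1 had CCAAT and TTTGAA once each, with their leftmost bases 73 and 29 bases before the start. CDC20 had 2 of each, and CENPF had 3 CCAAT and no TTTGAA. Over 35116 promoter windows of the table, cut to the same 250 bases, 32.0% held CCAAT and 13.3% held TTTGAA on either strand. Among the 27 of 30 spindle genes with an entry, 74.1% held CCAAT and 55.6% held TTTGAA. Among the 30 of 35 kinetochore genes with an entry, 53.3% and 16.7% did. A match describes letters in this window and is not evidence of binding.

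**Figure D2:**
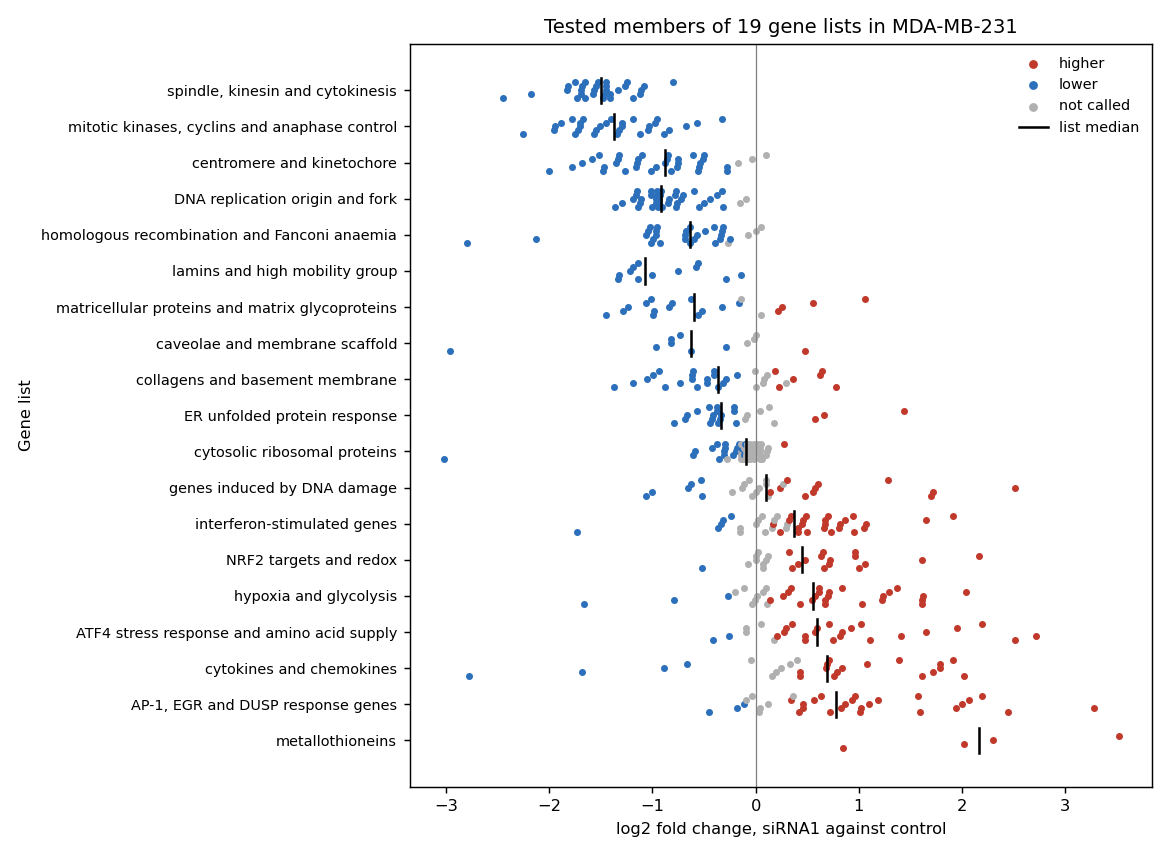
Each point is a tested member of 1 of 19 gene lists, placed by its log2 fold change, siRNA1 against control, on the x axis, with the list median as a black bar. Both mitotic lists lie wholly left of 0 (medians -1.37 and -1.50), while the 4 metallothioneins lie wholly right of it (median 2.16). MT1F among them entered the test only through the siRNA1 libraries.

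Replication genes fell by less than the mitotic kinase and spindle genes, and by about as much as the kinetochore genes. Of 38 origin and fork genes 36 fell (median -0.92), and RPA2 (-0.15 ± 0.07) and RFC1 (-0.10 ± 0.05) were not called. RPA2 was called lower without control library 3 (-0.22). CDC6, which loads the replicative helicase, was at 152, 151 and 157 CPM in the controls and at 62.1, 60.3 and 56.3 with siRNA1, with no overlap (-1.36 ± 0.05). The helicase subunit MCM7 fell by 1.11 ± 0.07 and the sliding clamp PCNA by 0.77 ± 0.05 on the log2 scale. For the supply of DNA precursors, 10 of 11 genes fell, among them RRM2 of ribonucleotide reductase (-1.21 ± 0.06) and TYMS, the target of fluorouracil (-1.14 ± 0.05). All 12 lamin and high mobility group genes fell (median -1.07), with the nuclear envelope protein LMNB1 at -1.32 ± 0.05. All 6 tested replication-dependent histone genes fell, of 55 listed, and the others did not reach the level needed for a test. Among the 6, HIST1H2BJ was at 0.286, 0.433 and 0.233 CPM with siRNA1 and entered the test only through the controls. The entry rule therefore set the direction of its change. FOXM1, a transcription factor that drives mitotic genes, fell by 1.39 ± 0.07, and the cyclin CCND1 fell by 1.02 ± 0.04 on the log2 scale.

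Most genes of homologous recombination fell. Of 30 recombination and Fanconi anaemia genes 26 fell and 0 rose (median -0.64). The helicase BRIP1 went from 70.2, 67.5 and 82.4 CPM to 17.4, 16.8 and 16.1, the highest control being library 3 (-2.13 ± 0.08). BRCA2 (-0.96 ± 0.06) and BRCA1 (-0.64 ± 0.06) fell by less, and RAD50 (0.00 ± 0.06), PALB2 (0.05 ± 0.06), FANCC (-0.08 ± 0.08) and RAD52 (-0.27 ± 0.11) were not called. Without control library 2, RAD52 was called lower (-0.33). Among BLM's own partners and relatives, 8 of 10 genes fell, BLM included. Among them RMI1 fell by 0.66 ± 0.07 and TOP3A by 0.34 ± 0.06 on the log2 scale, RECQL5 rose (0.27 ± 0.07), and the helicase WRN was not called (0.02 ± 0.07).

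Some of the deepest falls were single members of stable complexes, well below the other members of the same complex. These genes were singled out, and their partners chosen, after their values were seen. RPS9, a protein of the small ribosomal subunit, was at 289, 289 and 242 CPM in the controls and at 30.3, 35.9 and 34.6 with siRNA1. It had the lowest log2 fold change of any called gene above an average log2 CPM of 1 (-3.02 ± 0.09). The other 54 tested ribosomal protein genes ran from -0.61 (RPL3) to 0.28 (RPS12), with a median of -0.09, 17 lower and 1 higher. Leaving out control library 3 raised the number of lower ribosomal genes, RPS9 included, from 18 to 30, and 2 were higher without it or without siRNA1 library 1. Over all processing alternatives and omitted libraries, lower ribosomal genes numbered 9 to 30 and higher ones 0 to 4. HAUS1, a subunit of the augmin complex that branches spindle microtubules, went from 37.6, 40.2 and 45.4 CPM to 5.77, 5.27 and 6.16 (-2.84 ± 0.09). The other 7 augmin genes ran from -1.13 (HAUS8) to -0.00 (HAUS3), so all of them lay above HAUS1, although 5 of the 7 also fell.

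AP2M1, the cargo-binding subunit of the clathrin adaptor AP-2, fell by 2.34 ± 0.06, AP2B1 fell by 0.63 ± 0.04, and AP2A1, AP2A2 and AP2S1 were not called (-0.01, -0.09 and -0.01). In the mitochondrial trifunctional protein of fatty acid oxidation, HADHA fell by 2.37 ± 0.05 and HADHB rose (0.42 ± 0.05). DYNLT1, a dynein light chain, went from 56.2, 58.3 and 64.1 CPM to 9.77, 7.92 and 8.54 (-2.77 ± 0.09), and the other 8 dynein genes examined ran from -0.54 (DYNC1H1) to 0.30 (DYNLRB1, which was not called without siRNA1 library 1, at 0.22). The lipid phosphatase FIG4 fell by 2.17 ± 0.07, and its scaffold VAC14 (0.18 ± 0.06) and kinase PIKFYVE (0.20 ± 0.07) rose. Both calls depended on the libraries used: VAC14 was not called without siRNA1 library 1 (0.17), siRNA1 library 2 (0.14) or control library 1 (0.16), and PIKFYVE was not called when any library other than control library 3 was left out (0.14 to 0.21). All 6 of these genes also fell in A549 cells given siRNA1, at -4.61 ± 0.12 for RPS9, -3.68 ± 0.14 for HAUS1, -2.16 ± 0.07 for AP2M1, -3.30 ± 0.07 for HADHA, -3.76 ± 0.11 for DYNLT1 and -2.38 ± 0.09 for FIG4. The siRNA sequence was not given in the sources used here, so matches of it to these mRNAs were not tested.

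**Figure D3:**
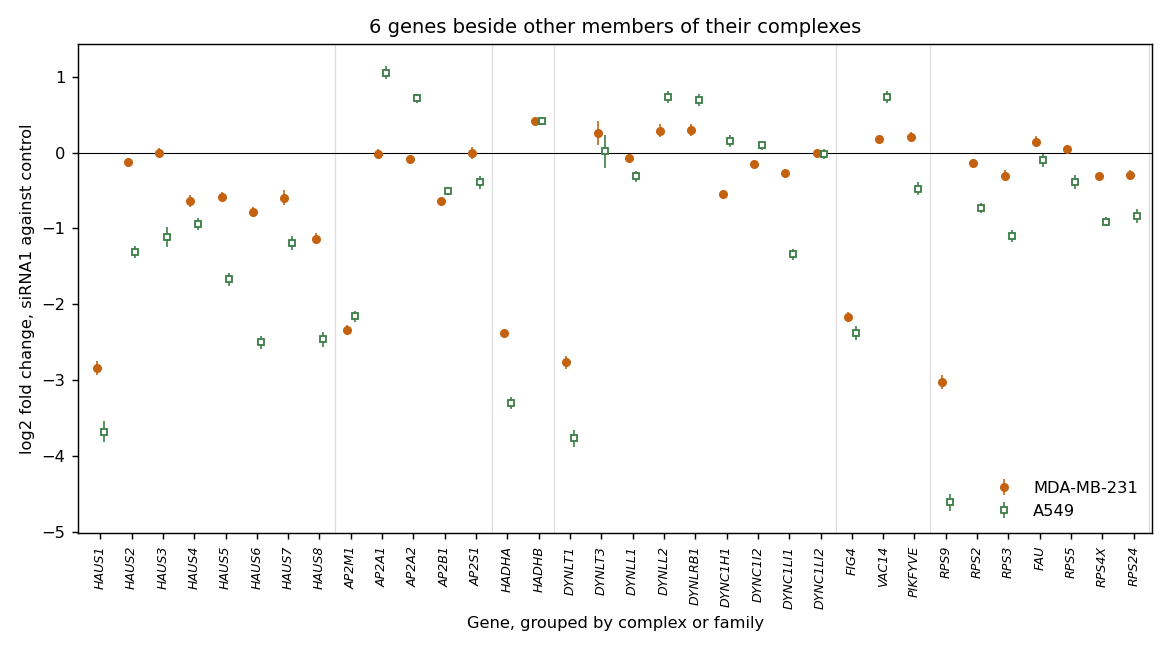
Log2 fold changes, siRNA1 against control (y axis, bars are standard errors, n = 3 per group), of 6 genes and of other members of their complexes or families (x axis), in MDA-MB-231 (filled circles) and A549 (open squares). HAUS1, AP2M1, HADHA, DYNLT1, FIG4 and RPS9 lie at -2.17 or below in MDA-MB-231, and the other genes shown lie at -1.13 or above.

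Genes of the ATF4 response rose. ATF4 is a transcription factor made when translation is slowed by amino acid shortage or other stress, and it raises genes of amino acid supply. Of 27 tested list members 21 rose and 2 fell (median 0.60), against 29.9% of all genes that rose. CHAC1, which degrades glutathione, was at 4.81, 4.07 and 4.54 CPM in the controls and at 27.0, 34.8 and 26.4 with siRNA1, with library 2 the highest and no overlap (2.71 ± 0.13). ASNS, which makes asparagine, went from 36.3, 41.2 and 38.8 CPM to 78.9, 90.2 and 81.4 (1.11 ± 0.07). SESN2 (2.51 ± 0.10), DDIT3 (1.95 ± 0.09), TRIB3 (1.65 ± 0.09) and ATF4 itself (0.82 ± 0.05) rose, SLC1A4 (-0.41 ± 0.10) and SLC7A5 (-0.26 ± 0.09) fell, and PHGDH was not called (-0.10 ± 0.11). The fall of SLC7A5 was not called without siRNA1 library 1 or 3 or without control library 1 or 2 (-0.26 to -0.19), which left 1 lower member. Without control library 3, 4 members fell, PHGDH among them (-0.22).

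CHAC1 and ASNS promoters are shown because both hold TGATGNAA, the letters of the C/EBP-ATF composite site through which ATF4 acts, and both genes rose. As above, these are the 250 bases before the RefSeq start in GRCh38.p14, CHAC1 at chr15:40953221-40953470 on the plus strand and ASNS at chr7:97872409-97872658 on the minus strand, with the match on either strand in capitals.
CHAC1: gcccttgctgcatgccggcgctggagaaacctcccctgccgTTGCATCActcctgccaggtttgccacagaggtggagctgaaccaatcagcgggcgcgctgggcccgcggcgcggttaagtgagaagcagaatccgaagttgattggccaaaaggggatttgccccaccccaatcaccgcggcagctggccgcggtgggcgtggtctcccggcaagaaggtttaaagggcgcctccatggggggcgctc
ASNS: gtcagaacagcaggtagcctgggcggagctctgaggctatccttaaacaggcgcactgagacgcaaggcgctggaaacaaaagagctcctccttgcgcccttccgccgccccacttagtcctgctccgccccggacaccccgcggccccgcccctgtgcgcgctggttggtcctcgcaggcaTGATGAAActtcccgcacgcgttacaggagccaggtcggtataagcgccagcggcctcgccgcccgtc
The match begins 209 bases before the start in CHAC1, on the opposite strand, and 68 bases before it in ASNS. The letters stood in 3 of the 23 list members with an entry, of 27 tested (13.0%), and in 3.14% of the 35116 windows. Here too a match is not evidence of binding, and its part in the rises was not tested.

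Metallothioneins, small proteins that bind zinc and copper, rose in all 4 tested cases (median 2.16). MT2A, the most abundant of them, was at 354, 408 and 289 CPM in the controls and at 599, 730 and 556 with siRNA1 (0.84 ± 0.13). MT1X went from 19.3, 23.6 and 19.8 CPM to 83.6, 96.3 and 73.7 (2.02 ± 0.11), and in both genes library 2 was the highest of its group. MT1E went from 19.9, 21.3 and 20.5 CPM to 104, 113 and 87.9. MT1F (3.52 ± 0.21) was at 0.549, 0.376 and 0.347 CPM in the controls, so it entered the test only through the siRNA1 libraries. The entry rule therefore set the direction of its change, and MT1F counts in the 4 and in the median. These genes are near-identical in sequence, and the counting could share reads between them. MT1A, MT1G, MT1H, MT1M and MT1L did not reach the level needed for a test.

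Of the 4 tested metallothioneins, 2 had a promoter entry, MT1X at chr16:56682220-56682469 and MT2A at chr16:56608334-56608583, both on the plus strand of GRCh38.p14. They are shown for their repeated matches to the metal response element core, TGCACNC or TGCGCNC, which is bound by MTF1 and marked in capitals on either strand.
MT1X: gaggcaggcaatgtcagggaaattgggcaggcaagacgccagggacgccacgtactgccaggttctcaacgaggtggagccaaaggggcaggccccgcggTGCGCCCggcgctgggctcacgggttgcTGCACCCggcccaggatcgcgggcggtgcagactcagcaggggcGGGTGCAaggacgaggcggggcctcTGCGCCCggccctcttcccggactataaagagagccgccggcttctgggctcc
MT2A: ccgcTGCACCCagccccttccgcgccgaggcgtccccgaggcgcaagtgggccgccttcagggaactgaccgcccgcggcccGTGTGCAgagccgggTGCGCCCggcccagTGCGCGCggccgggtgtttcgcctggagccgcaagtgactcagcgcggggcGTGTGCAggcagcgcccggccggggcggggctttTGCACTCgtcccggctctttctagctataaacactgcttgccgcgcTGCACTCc
MT1X held 2 matches of each form, and MT2A held 5 of TGCACNC and 2 of TGCGCNC. Of all 35116 windows, 9.87% held TGCACNC and 16.8% held TGCGCNC.

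PTGS2 had the highest log2 fold change of any called gene above an average log2 CPM of 1. It encodes cyclooxygenase 2, the inducible enzyme of prostaglandin synthesis. Its level was 115, 105 and 195 CPM in the controls and 1919, 1833 and 2092 with siRNA1. Control library 3 was the highest control, yet every siRNA1 library was far above it (3.82 ± 0.21, or 4.14 without control library 3). Of 12 tested genes of the pathway, PTGS2 included, 4 rose and 5 fell. The phospholipase PLA2G4A, which frees arachidonic acid, rose (0.88 ± 0.07), and the prostaglandin E synthase PTGES (-0.71 ± 0.09) and the constitutive cyclooxygenase PTGS1 (-1.31 ± 0.20) fell. Leaving out control library 3 gave 6 higher members.

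Cytokine and chemokine genes split, with most of them higher. Of 26 tested genes 16 rose and 4 fell (median 0.69). IL6 was at 25, 27.1 and 28.6 CPM in the controls and at 89.2, 93.7 and 95.1 with siRNA1 (1.78 ± 0.06). CXCL3, which attracts neutrophils, went from 32.1, 30.6 and 37.8 CPM to 131, 135 and 141 (2.02 ± 0.08), and CXCL8 from 743, 722 and 973 to 1251, 1317 and 1417 (0.71 ± 0.10). In both chemokines control library 3 was the highest control and the groups did not overlap. CXCL2 (1.61 ± 0.10) and CXCL11 (1.78 ± 0.12) rose as well. CCL2, which attracts monocytes, fell from 3.75, 3.52 and 3.41 CPM to 0.494, 0.406 and 0.647 (-2.78 ± 0.18). It entered the test only through the controls, so the entry rule set the direction of its change. IL18 (-1.68 ± 0.07), IL11 (-0.88 ± 0.10) and CSF1 (-0.67 ± 0.06) fell too.

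On the list of AP-1, EGR and DUSP early response genes 23 of 32 rose (median 0.78), and 3 fell. ATF3 counts on this list and on the ATF4 list. The transcription factor EGR3 was at 0.420, 0.752 and 0.781 CPM in the controls and at 5.59, 7.25 and 6.34 with siRNA1 (3.28 ± 0.21). It entered the test only through the siRNA1 libraries, so the entry rule set the direction of its change. JUNB (1.57 ± 0.08), KLF4 (1.18 ± 0.05), ZFP36, which destabilises cytokine mRNAs (1.59 ± 0.08), and the feedback phosphatase DUSP6 (1.02 ± 0.05) rose. FOSL1 (0.03 ± 0.06), FOSL2 (0.05 ± 0.07) and MYC (0.12 ± 0.06) were not called, but MYC was called higher without control library 2 (0.18). The number that fell was 1 in place of 3 without siRNA1 library 2, siRNA1 library 3 or control library 1. Interferon-stimulated genes rose in 24 of 40 cases (median 0.38), and 5 fell. IFIT1 (0.95 ± 0.05), IFIH1, a sensor of double-stranded RNA (1.05 ± 0.07), and SAMD9 (0.70 ± 0.05) rose. EIF2AK2, the RNA-activated kinase PKR, went against most of its list, from 93.3, 96.8 and 100 CPM to 31.0, 25.7 and 30.6 (-1.73 ± 0.08). The number of lower interferon genes was 3 without siRNA1 library 3 or control library 2.

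Of 34 hypoxia and glycolysis genes 23 rose and 3 fell (median 0.56). SLC2A3, a high-affinity glucose transporter, was at 34.5, 38.5 and 35.8 CPM in the controls and at 142, 158 and 147 with siRNA1 (2.04 ± 0.06). VEGFA, which drives vessel growth, went from 319, 343 and 359 CPM to 1070, 1041 and 1043 (1.63 ± 0.05), with tight and separate groups. NDRG1 (1.37 ± 0.10), EGLN3 (1.61 ± 0.12) and CA9 (0.84 ± 0.10) rose, whereas the core glycolytic genes GAPDH (-0.04 ± 0.05), PKM (-0.01 ± 0.05), ENO1 (0.01 ± 0.06) and LDHA (-0.11 ± 0.05) were not called. Without control library 3, LDHA was called lower (-0.16). PGK1, a glycolytic enzyme of the same list, fell from 930, 948 and 891 CPM to 288, 301 and 284 (-1.67 ± 0.04). The NRF2 and redox list had 15 of 24 members higher and 1 lower (median 0.45). HMOX1, which breaks down haem, went from 11.7, 11.1 and 11.1 CPM to 43.9, 60.0 and 47.8 (2.16 ± 0.11), with siRNA1 library 2 the highest. The ferritin gene FTH1 (1.06 ± 0.04) and the thioredoxin reductase TXNRD1 (0.96 ± 0.04) rose, and GSR (0.07 ± 0.06) and KEAP1 (0.01 ± 0.10) were not called, but GSR was called higher without control library 3 (0.12). The single lower member, ABCC2 (-0.52 ± 0.17), was not called without siRNA1 library 1, siRNA1 library 3, control library 1 or control library 3 (-0.51 to -0.43).

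**Figure D4:**
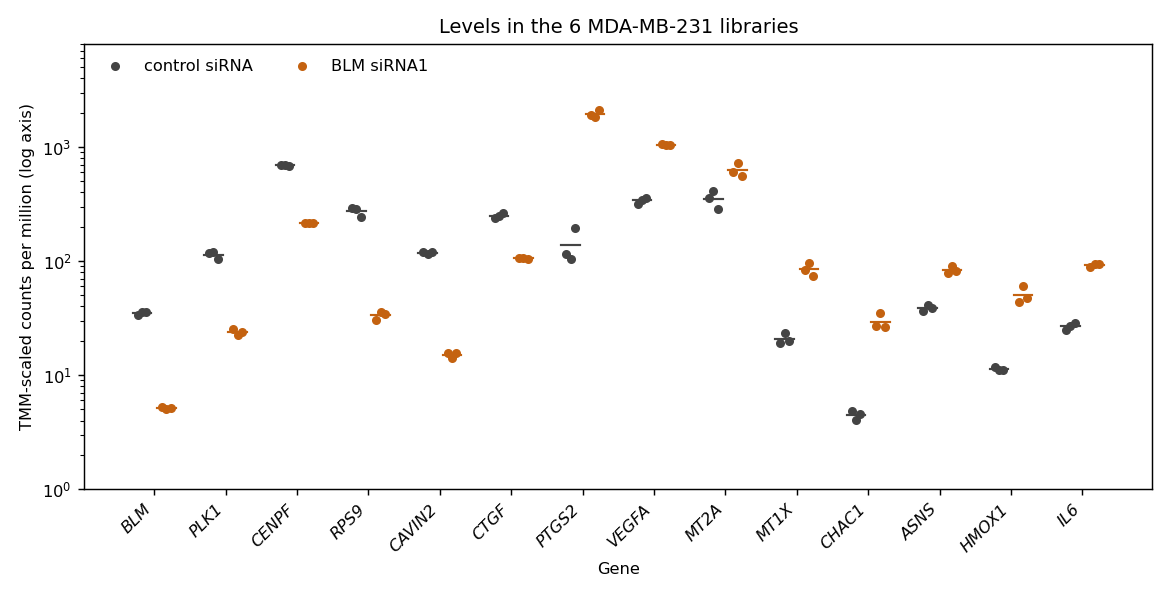
TMM-scaled CPM (y axis, log scale) of 14 genes (x axis) in the 3 control libraries (dark grey) and the 3 siRNA1 libraries (orange), with group means as lines. The groups are apart in all 14 genes, BLM going from 33.5 to 35.9 CPM down to 5.08 to 5.25, and control library 3 of PTGS2 stands at 195 CPM above the other controls.

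A list of p53 target genes, marked in the figures as induced by DNA damage, covers arrest, death, repair, metabolism and feedback. It moved in both directions: 11 of 28 rose and 6 fell (median 0.10), against 29.9% and 29.8% of all genes. DNA damage itself was not measured. CDKN1A, the inhibitor p21, was at 229, 218 and 191 CPM in the controls and at 476, 575 and 505 with siRNA1 (1.29 ± 0.08), with no overlap. GDF15 (1.72 ± 0.09), BBC3 (1.70 ± 0.12) and SESN2 rose, and MDM2 (-0.52 ± 0.06) and the translesion polymerase POLH (-1.06 ± 0.05) fell. SESN2 also counts on the ATF4 list, and BBC3 on the BCL2 family list. BAX (-0.04 ± 0.08), FAS (-0.11 ± 0.13) and PPM1D (0.03 ± 0.07) were not called. In the BCL2 family 10 of 15 genes rose and 2 fell (median 0.44). The killers PMAIP1 (1.27 ± 0.11) and BMF (1.69 ± 0.11) rose along with the protector MCL1 (0.72 ± 0.05), and BCL2 fell (-0.90 ± 0.11).

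Matrix and caveolar genes fell. Of 20 matricellular and matrix glycoprotein genes 14 fell and 4 rose (median -0.59), and of 31 collagen and basement membrane genes 19 fell and 6 rose (median -0.37). CTGF, a matricellular growth regulator, was at 240, 246 and 264 CPM in the controls and at 107, 106 and 105 with siRNA1 (-1.24 ± 0.05). FBN1 (-1.45 ± 0.07), THBS1 (-1.29 ± 0.06), TNC (-1.07 ± 0.05) and the basement membrane proteoglycan HSPG2 (-1.37 ± 0.06) fell, while fibronectin FN1 (0.21 ± 0.04) and COL1A1 (0.63 ± 0.06) rose. CAVIN2, a coat protein of caveolae, went from 119, 116 and 119 CPM to 15.6, 14.1 and 15.7, the deepest fall of its list (-2.96 ± 0.06). In all 7 of 11 caveolar genes fell and 1 rose (median -0.63), with CAVIN1 at -0.97 ± 0.09 and CAV1 at -0.82 ± 0.04, and the 1 became 2 without control library 3. Targets of the mechanosensitive YAP and TEAD factors, a list that shares CTGF and CYR61 with the matricellular list, fell in 17 of 31 cases and rose in 5 (median -0.19), or 8 without control library 3. ANKRD1 fell by 1.57 ± 0.06 and NT5E by 1.35 ± 0.06 on the log2 scale, and YAP1 was not called (0.12 ± 0.07), or called higher without control library 3 (0.19). Among 14 integrins 9 fell and 3 rose, with ITGA6 at -0.86 ± 0.05 and ITGA5 at 0.55 ± 0.04.

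Chaperones of the endoplasmic reticulum fell while ATF4 targets rose. Of 24 genes of the unfolded protein response 16 fell and 3 rose (median -0.34), the 3 becoming 6 without control library 3. The disulphide isomerase PDIA4 was at 441, 455 and 427 CPM in the controls and at 258, 252 and 256 with siRNA1 (-0.79 ± 0.04). HSP90B1 (-0.67 ± 0.05), CALR (-0.68 ± 0.06) and the main chaperone HSPA5 (-0.21 ± 0.04) fell, and the stress sensor ERN1 rose (1.44 ± 0.07). Some ribosomal transcripts were counted despite the removal of ribosomal RNA from the libraries. The mitochondrial RNR2 was at 5943, 6947 and 6581 CPM in the controls and at 14842, 11494 and 13792 with siRNA1 (1.04 ± 0.09), and the mitochondrial RNR1 rose too (0.78 ± 0.07). The share left by ribosomal depletion in each library was not tested. RNA45SN1, the precursor of cytosolic ribosomal RNA, was at 9.53, 6.05 and 6.45 CPM and at 27.3, 46.2 and 36.4 (2.32 ± 0.21), and its reads are shared with near-identical copies.

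Whether the response to siRNA1, taken to be the same siRNA in both lines from its shared label, differed between them was tested as a difference of effects over 12 libraries, 3 per group, in which 14896 genes passed the same rule. The effect differed in 9450 genes (63.4%), 5080 higher (34.1%) and 4370 lower (29.3%) in MDA-MB-231 than in A549. Which direction held more genes depended on the processing. Lower genes were the majority after scaling by DESeq2 (4802 against 4525), under filterByExpr (5158 against 4515) and on log2(TPM + 1) (6093 against 3690). They were also the majority when A549 siRNA1 library 2 (5266 against 4435) or any A549 control library was left out. Higher genes stayed the majority under the replicate block (5137 against 4399) and when any other library was left out. BLM itself fell further in A549 (-6.10) than in MDA-MB-231, a difference of 3.33 ± 0.13, so the knockdowns compared were of unequal depth. Of the 4057 genes higher in MDA-MB-231, 2090 were higher in A549 too, and of the 4041 lower genes 2444 were lower in A549 too. A called difference with opposite calls was seen in 913 genes that rose in MDA-MB-231 and fell in A549, and in 928 that fell in MDA-MB-231 and rose in A549. All 30 mitotic kinase genes were above A549 in their effect, as they fell less in MDA-MB-231. Their medians in the 12-library fit were -1.39 in MDA-MB-231 and -4.90 in A549. The kinesin KIF20A of the spindle list differed by 3.55 ± 0.12. Values for single genes are from the 6-library fit in MDA-MB-231 and from the 12-library fit in A549.

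Several responses had opposite directions in the 2 lines, while others shared a direction and differed in size. The share of all genes that rose or fell in A549 is not given here, so list counts in A549 have no such share beside them. Of all genes tested over the 12 libraries, 34.1% were higher and 29.3% lower in their effect in MDA-MB-231. Which of these 2 shares was the larger depended on the processing, as given above. Of 27 ATF4 genes, 19 fell and 5 rose in A549, where CHAC1 was at -1.21 and ASNS at -2.15, and 25 of the 27 were higher in their effect in MDA-MB-231. The differences were 3.91 ± 0.23 for CHAC1, 3.25 ± 0.12 for ASNS, 2.86 ± 0.13 for HMOX1, 3.32 ± 0.14 for CXCL3 and 5.40 ± 0.28 for the matrix protease MMP9, which rose in MDA-MB-231 (1.18 ± 0.09) and was at -4.24 in A549. Matricellular genes rose in 16 of 20 cases in A549 (median 1.39), and 17 of 20 were lower in their effect in MDA-MB-231, with TNC differing by -2.71 ± 0.18, CTGF by -1.94 ± 0.09 and CYR61 by -1.47 ± 0.09. All 28 genes of the p53 target list rose in A549, and 27 were lower in their effect in MDA-MB-231. CDKN1A differed by -2.49 ± 0.12 and BBC3 by -1.29 ± 0.17, and both rose in both lines. CAVIN2 (-3.15 ± 0.10) and CYP24A1, which inactivates vitamin D (-2.77 ± 0.10), were lower in their effect in MDA-MB-231. Both fell in MDA-MB-231, and their values in A549 are not given here. PTGS2 rose in both lines, more in MDA-MB-231 (difference 2.26 ± 0.25).

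A difference was not called for several of the genes with large changes. The value was -0.28 ± 0.15 for SESN2 (edgeR adjusted p 0.11), 0.13 ± 0.10 for SLC2A3 (adjusted p 0.274), 0.23 ± 0.27 for MT1F (adjusted p 0.469), -0.19 ± 0.10 for AP2M1 (adjusted p 0.0987) and 0.20 ± 0.12 for FIG4 (adjusted p 0.158). Among the other genes set beside their complex partners, the differences were 1.58 ± 0.14 for RPS9, 0.83 ± 0.19 for HAUS1, 0.92 ± 0.10 for HADHA and 0.99 ± 0.15 for DYNLT1, all of which fell less in MDA-MB-231.

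**Figure D5:**
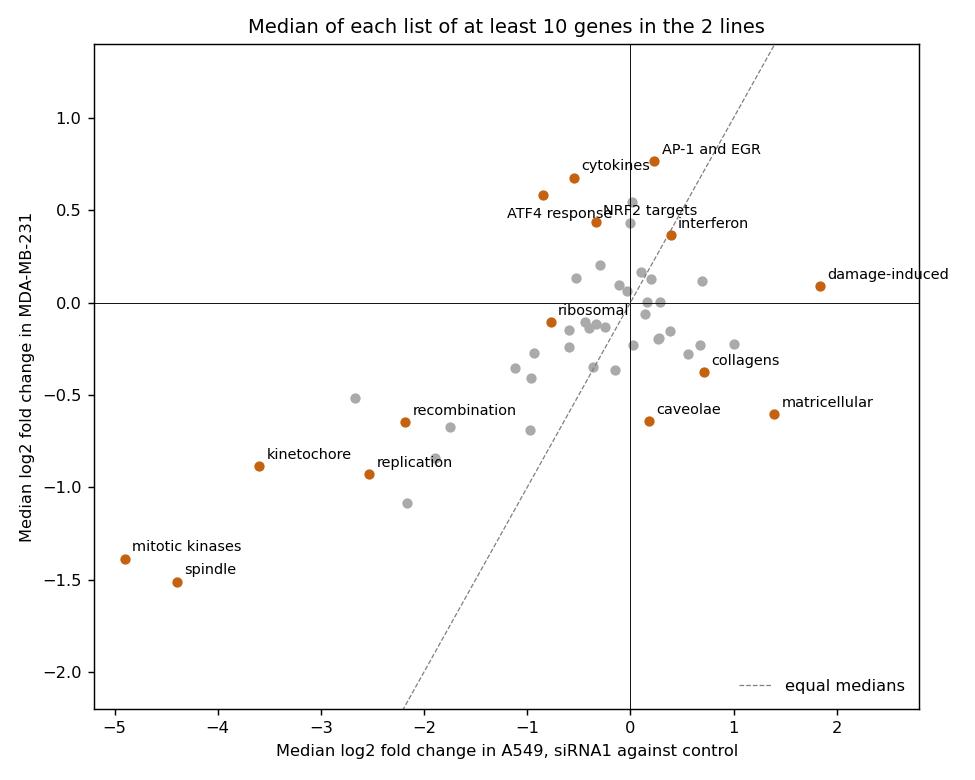
Each point is the median log2 fold change, siRNA1 against control, of a gene list of at least 10 genes in A549 (x axis) and MDA-MB-231 (y axis), both from the 12-library fit, with a dashed line of equal medians. Mitotic and spindle lists lie lowest in both lines, ATF4 genes and cytokines lie left of 0 and above 0, and matricellular genes lie right of 0 and below 0.

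The mean transcript length per gene, which RSEM weights by the estimated share of each isoform, shows whether isoforms shifted. Of 7429 genes with more than 1 transcript and at least 100 counts in every library, 22 became longer and 27 shorter by limma (0.66%), and 998 had an unadjusted p under 0.05. SMARCA2, an ATPase of the BAF remodelling complex, was at 3848, 3799 and 3801 bases in the controls and at 2983, 2916 and 2921 with siRNA1 (log2 shift -0.38 ± 0.01, limma adjusted p 0.00292), with no overlap. PDK3, a kinase of pyruvate dehydrogenase, went from 7749, 7931 and 7579 bases to 4828, 5405 and 5048 (-0.61 ± 0.05, limma adjusted p 0.0348). The counts were fragile: leaving out a library gave 3 genes without siRNA1 library 1, 16 without siRNA1 library 2, 5 without siRNA1 library 3, 5 without control library 1, 8 without control library 2 and 38 without control library 3. SMARCA2 was called in each of these, and PDK3 only in the one without siRNA1 library 2.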

How the data were processed

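Total RNA libraries (TruSeq Stranded Total RNA with Ribo-Zero Gold, per the labels' protocols) were quantified by the authors with RSEM on hg19, per the submitters' processing notes; the RSEM version, aligner and annotation were not given in the sources used here. Per the file headers, each deposited gene table holds expected counts, TPM, FPKM and mean transcript lengths in bases (length and effective length). Deposited FPKM values were not used. Expected counts were rounded, TMM-scaled and tested with edgeR 4.0.16 (R 4.3.3), with genes called at a Benjamini-Hochberg adjusted p under 0.05. TPM values, as deposited, served marker levels and an alternative test. The difference between lines was an interaction term over 12 libraries. Mean transcript length was tested as log2 length with limma 3.58.1. DESeq2 1.42.0 was an alternative. The scripts were tested on simulated data.

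The members and gene lists were chosen with earlier results of these data known. Named genes were BLM, the 25 highest and 25 lowest called genes, those of smallest adjusted p or highest level, and up to 5 called members of each list, with not-called members printed as such. Other list members and all complex partners were named after their values were seen. Counts limit precision, and read duplicates could not be removed without molecular identifiers. Promoters came from the RefSeq table for GRCh38.p14, in which 10405 of the 13572 genes (76.7%) had an entry. A motif share was given only for lists with an entry for at least 80% of their tested genes, which leaves out the mitotic kinases (23 of 30). Some genes of the lists are not reported here.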

Additional observations from a re-analysis of the deposited data

Results flagged for a closer look

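The effect of siRNA1 differed between MDA-MB-231 and A549 in 9450 genes by the edgeR interaction test, and these values are flagged for that difference. Both lines were at unequal knockdown, and the BLM effect itself differed by 3.33 on the log2 scale, MDA-MB-231 minus A549. Among genes that fell in both lines, the difference was 3.55 for KIF20A, 1.58 for RPS9, 0.99 for DYNLT1, 0.92 for HADHA and 0.83 for HAUS1, each a shallower fall in MDA-MB-231. Among genes that rose in MDA-MB-231 and were lower in A549, it was 5.40 for MMP9, 3.91 for CHAC1, 3.32 for CXCL3, 3.25 for ASNS and 2.86 for HMOX1. PTGS2 rose in both lines and differed by 2.26. The matrix genes TNC (-2.71), CTGF (-1.94) and CYR61 (-1.47) fell in MDA-MB-231 and rose in A549. The p53 target genes CDKN1A (-2.49) and BBC3 (-1.29) rose in both lines, by less in MDA-MB-231. CAVIN2 differed by -3.15 and CYP24A1 by -2.77, and both fell in MDA-MB-231. The part of unequal knockdown in these differences was not tested.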

How the results depend on the processing

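The number of genes changed ran from 6915 with all 18 libraries in the fit to 8457 with filterByExpr, and from 6953 to 8984 when a library was left out. The BLM value ran from -2.29 on log2(TPM + 1) to -2.79. The number of genes past a log2 fold change of 1 was 932 and fell to 523 on log2(TPM + 1). Higher genes made up 50.1% of calls, 58.4% with upper quartile factors and 59.8% on log2(TPM + 1). Genes with a changed transcript length numbered 49, but 32 by effective length, 2 with the replicate block and 3 to 38 when a library was left out; a robust trended prior, chosen after seeing the data, gave 45. Libraries of the same number did not deviate alike over all genes (correlations of -0.173, 0.0849 and -0.0917). The replicate block gave 8102 changed genes, 9536 genes that differ between lines and -2.76 for BLM. Deviations from the group mean ran in part with transcript length. Their Spearman correlation with length was -0.246 in control library 2 and in siRNA1 library 2, and 0.215 in control library 3. It ran from -0.0818 to 0.152 in the other libraries, and its part in the results was not tested. Besides BLM, the printed fold changes were recomputed under each alternative. Of the 137 called genes, 8 lost their call under some alternative (27 of 2192 values): ABCC2, SLC7A5, PIKFYVE, VAC14, DYNLRB1, DYNC1H1, FN1 and RPS12, the last 3 only with all 18 libraries in the fit. None of the 137 changed sign. Of the 28 not called, 9 were called under some alternative (16 of 448 values) and 16 changed sign, with reported values from -0.11 to 0.05; the cause was not tested. Genes near 1 CPM are the least precise at this depth.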

Other observations

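Lipid synthesis genes fell more often than they rose. Of 34 cholesterol and fatty acid genes 20 fell and 4 rose (median -0.23). FADS2, a desaturase of polyunsaturated fatty acids, was at 133, 125 and 95.0 CPM in the controls and at 17.5, 16.5 and 17.5 with siRNA1 (-2.77 ± 0.12), with control library 3 the lowest control and no overlap. MSMO1 (0.48 ± 0.08) and CYP51A1 (0.29 ± 0.05) of sterol synthesis rose. Among tubulins and their regulators 11 of 13 fell and 0 rose (median -0.68), led by TUBA1B (-1.26 ± 0.06). Tubulin genes are near copies of each other, and the counting could share reads between them.

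Of 23 tested genes of antigen presentation 14 rose and 5 fell (median 0.18), and 9 rose without siRNA1 library 2. The class I gene HLA-B was at 410, 376 and 376 CPM in the controls and at 757, 811 and 782 with siRNA1 (1.02 ± 0.05). HLA-C (0.70 ± 0.04) and HLA-F (1.26 ± 0.11) rose too. The class II regulator CIITA (-1.20 ± 0.10) and HLA-DRA (-0.94 ± 0.06) fell, whereas HLA-DRB1 (0.34 ± 0.05) and HLA-DQB1 (0.58 ± 0.12) rose. These genes are highly variable, and reads may be split between them. Among 28 genes of matrix proteolysis 12 rose and 9 fell, with the inhibitor TIMP3 at -1.08 ± 0.07, the urokinase PLAU at -0.89 ± 0.05 and its receptor PLAUR at 0.68 ± 0.06. KISS1, a metastasis suppressor gene, went from 13.8, 12.1 and 8.51 CPM to 1.22, 1.81 and 1.73, with control library 3 the lowest control (-2.85 ± 0.21).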
